A study of Mus musculus with 40 samples.

Results

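The genes described here encode the nuclear-encoded subunits of the oxidative phosphorylation system. They were chosen by name: gene symbols beginning with Ndufa, Ndufb, Ndufc, Ndufs or Ndufv and a number, the symbols Sdha to Sdhd, and symbols beginning with Uqcr, with Cox4 to Cox8, or with Atp5. The rule used no measured value and found 83 of the 18024 genes in the table, of which 35 belong to complex I, 4 to complex II, 8 to complex III, 19 to complex IV and 17 to complex V. Ndufa4 and its paralog Ndufa4l2 were counted with complex IV despite their names, as was Cox7a2l, which joins complexes III and IV. Atp5s, coupling factor B, was counted with complex V although it is not a core subunit. RNA was sequenced from pancreas, kidney, ovary, heart and small intestine of C57BL/6j mice at 60 days after birth. FMTg mice (Mdm2FM/- Cag-CreERTg), in which Mdm2 is lost, gave 5 libraries per tissue, and Tg mice (Mdm2+/- Cag-CreERTg), which retain Mdm2, gave 3 libraries per tissue. All 40 libraries were made 24 hours after p53 was acutely activated in the FMTg animals, per the series title. Both genotypes carry 1 null Mdm2 copy and the Cre-ER fusion under the broadly active Cag promoter, so the controls are heterozygous for Mdm2 and are not wild type. Each of 3 Tg mice gave a library of all 5 tissues, and the FMTg libraries came from 10 mice.

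The respiratory chain passes electrons from NADH through complex I, or from succinate through complex II, to coenzyme Q, then through complex III and cytochrome c to complex IV, where oxygen is reduced. Complexes I, III and IV pump protons across the inner mitochondrial membrane, and complex V, the ATP synthase, uses the gradient to make ATP. Complex II alone has no subunit encoded in mitochondrial DNA. Several complex IV subunits exist as a heart and muscle isoform and a liver-type isoform that is made in most other tissues. Mdm2 is the ubiquitin ligase that restrains p53, and p53 is known to regulate some genes of mitochondrial respiration and of mitochondrial cell death.

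The promoters of 4 members are shown because the results below turn on them: Cox8b, the heart and muscle isoform of subunit 8; Cox8a, its liver-type counterpart; Sdha, the catalytic flavoprotein of complex II; and Cox6b2, the testis isoform of subunit 6b. Each window runs from 250 bases before to 50 after the gene start and is taken from RefSeq on GRCm38.p6. Capitals mark matches to the motifs of NRF1 (GCGC, any 2 bases, GCGC), of ETS factors (CCGGAAGT), of the TATA box (TATAAA) and of the muscle E-box (CAGCTG), searched on both strands.
Cox8b, chr7:140900397-140900696, minus strand: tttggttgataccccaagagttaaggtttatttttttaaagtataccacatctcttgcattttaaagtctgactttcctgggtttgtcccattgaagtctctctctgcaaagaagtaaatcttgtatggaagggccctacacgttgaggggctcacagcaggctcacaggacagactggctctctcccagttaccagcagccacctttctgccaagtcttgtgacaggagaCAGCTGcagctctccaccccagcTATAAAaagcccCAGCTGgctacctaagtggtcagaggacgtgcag
Cox8a, chr19:7217567-7217866, minus strand: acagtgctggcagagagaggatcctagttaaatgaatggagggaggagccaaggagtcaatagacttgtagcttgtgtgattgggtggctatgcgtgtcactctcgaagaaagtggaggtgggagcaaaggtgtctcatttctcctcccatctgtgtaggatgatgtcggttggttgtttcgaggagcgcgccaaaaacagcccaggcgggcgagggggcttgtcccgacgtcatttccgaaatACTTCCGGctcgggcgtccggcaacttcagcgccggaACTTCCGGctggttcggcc
Sdha, chr13:74350191-74350490, minus strand: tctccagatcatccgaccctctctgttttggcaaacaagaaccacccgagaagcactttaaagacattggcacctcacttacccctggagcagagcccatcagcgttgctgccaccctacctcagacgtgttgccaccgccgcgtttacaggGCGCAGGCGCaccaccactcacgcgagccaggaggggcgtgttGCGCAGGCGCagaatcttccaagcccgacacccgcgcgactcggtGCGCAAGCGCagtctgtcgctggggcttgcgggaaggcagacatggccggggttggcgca
Cox6b2, chr7:4753045-4753344, minus strand: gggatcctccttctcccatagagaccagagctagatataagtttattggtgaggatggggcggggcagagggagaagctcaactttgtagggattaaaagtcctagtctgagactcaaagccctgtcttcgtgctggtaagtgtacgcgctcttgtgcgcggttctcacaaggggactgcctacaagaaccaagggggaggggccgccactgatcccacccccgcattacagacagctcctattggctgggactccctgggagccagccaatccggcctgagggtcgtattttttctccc
The Cox8b window held 1 TATA box match and 2 E-box matches, the Cox8a window 2 ETS matches and the Sdha window 3 NRF1 matches. In the Cox8b window the TATA box match and 1 E-box match lay after the annotated gene start, and the other E-box match before it. The Cox6b2 window held no match to any of the motifs searched, which also included a CRE (TGACGTCA), MEF2 and a p53 response element; the absence says only that these letters are not in this window. A RefSeq promoter was matched to 66 of the 83 members. NRF1 is a transcription factor known for activating genes of the respiratory chain. Its motif was present in 18 of the 66 matched members, 27.3%, against 7.0% of all 27025 genes with a promoter in the table. By complex, the NRF1 motif was found in 8 of 31 members of complex I, 2 of 3 of complex II, 1 of 5 of complex III, 1 of 14 of complex IV and 6 of 13 of complex V. The E-box was present in 9.09% of matched members against 18.3% of all genes, and the TATA box in 10.6% against 15.7%. ETS matches were found in 7.58% of members against 4.31% of all genes, and CRE matches in 6.06% against 2.03%. No matched member held the MEF2 motif, found in 0.636% of all genes, or the p53 element, found in 0.0111%. These matches are descriptions of the letters in the windows and do not show that a factor bound there.

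The libraries held 7.16 to 29.0 M reads in genes. Mdm2, read over the whole gene and therefore no check of the deletion itself, was higher in every FMTg library than in every Tg library of the same tissue, and its log2 change, FMTg minus Tg, passed the limma test in pancreas (1.59 ± 0.25 with the standard error, adjusted p = 0.0286) and kidney (2.00 ± 0.17, adjusted p = 0.000685). Cdkn1a, the cell cycle inhibitor and p53 target, rose in FMTg pancreas (1.77 ± 0.29, adjusted p = 0.0337) and in FMTg kidney (3.02 ± 0.24, adjusted p = 0.000504). Several libraries stood apart in marker genes of other cell types. FMTg replicate 3 of the pancreas had 78822 normalised reads (reads divided by the library's size factor) over 6 proximal tubule markers, against 838 to 1958 in the other 7 pancreas libraries. FMTg replicate 2 of the heart had 237264 normalised reads over 6 cardiomyocyte markers, against 501727 to 869737 in the other 7 heart libraries. FMTg replicate 3 of the ovary had 114972 normalised reads over 7 enterocyte markers, against 166 to 8011 in the other 7 ovary libraries. Over 10 acinar markers, Tg ovaries ran from 9512 to 2.63e+06 normalised reads and FMTg ovaries from 93.1 to 443925. Over the 7 enterocyte markers, FMTg hearts ran from 307 to 110164 and Tg hearts from 226 to 10066.5. The part of other tissue in the subunit values of these libraries was not tested. FMTg replicates 4 and 5 had more genes without a read than the other 6 libraries in every tissue, for example 2325 to 2346 in kidney against 1535 to 1654. The genotype medians over members and by complex are given below with and without FMTg replicate 3 of the pancreas, FMTg replicate 3 of the ovary and FMTg replicate 2 of the heart.

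Heart held the most transcript of these subunits. On the log2 scale of the deposited values, the 3 Tg heart libraries exceeded each of the other 4 Tg tissues at an adjusted p below 0.05 for 77 of 82 members tested, while 11.0% of all genes tested met the same condition. No member was lower in heart than in each of the others, against 6.31% of all genes. The count was 72 to 75 without single Tg replicates and 50 with FMTg libraries in place of Tg libraries. Cox7b2, the testis isoform of subunit 7b, had at most 3.87 normalised reads in any library and was not tested. In whole tissue, fewer cells of a type and less RNA per cell cannot be told apart. The level of all 82 tested members differed among the 5 Tg tissues (limma F test), as did that of 92.5% of all genes, so the direction and size of the differences carry the information here.

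**Figure D1:**
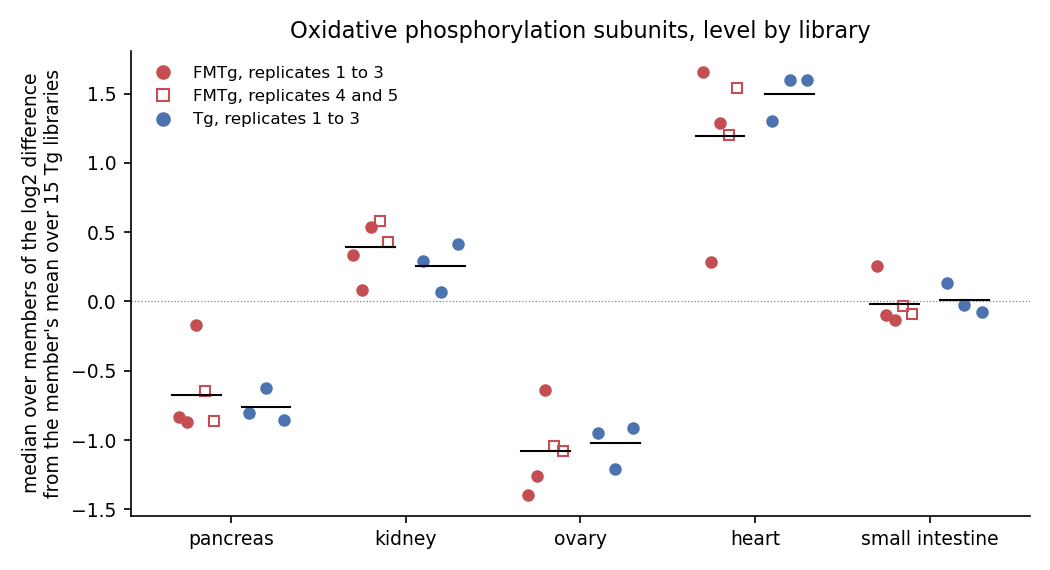
Level of the oxidative phosphorylation subunits in each of the 40 libraries, as the median over members of the log2 difference from the member's mean over the 15 Tg libraries, with FMTg left of Tg in each tissue. Tg heart libraries lay between 1.30 and 1.6 and Tg ovary libraries between -1.21 and -0.92; FMTg replicate 2 of the heart lay at 0.28.

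The median member was 4.71-fold higher in Tg heart than in Tg pancreas, where 79 of 82 members were higher and 1 was lower, against 31.1% and 24.3% of all genes. Against Tg kidney the median member was 2.34-fold higher in Tg heart, with 79 members higher and 3 lower, against 26.4% and 24.3% of all genes. Against Tg ovary it was 5.82-fold higher, with 80 members higher and 0 lower, against 22.9% and 33.1% of all genes. Against Tg small intestine it was 2.78-fold higher, with 78 members higher and 2 lower, against 28.7% and 31.4% of all genes. By the median member, kidney followed heart and ovary was lowest. Tg kidney exceeded Tg ovary by a median of 1.32 (75 members higher against 22.7% of all genes, and 0 lower against 32%). Kidney and small intestine were closer, with a median difference of 0.24, 28 members higher in kidney (25.2% of all genes) and 4 higher in small intestine (30.3%). Pancreas exceeded ovary by a median of 0.29, with 35 members higher (20.5% of all genes) and 4 lower (35.5%). Pancreas was below kidney for 73 members (30.3% of all genes) and above it for 1 (24.7%), and below small intestine for 62 (32.4%) and above it for 0 (21.0%). Ovary was below small intestine for 71 (26.8%) and above it for 1 (29.5%). The pancreas contrasts depended on the scaling. With each library re-centred on its median gene, pancreas exceeded ovary by a median of 0.61, with 61 members higher (31.4% of all genes) and 3 lower (23.5%). It was then below kidney for 60 (22.5%) and above it for 1 (32.1%), and below small intestine for 51 (23.4%) and above it for 4 (29.4%). Members took 3.24% ± 0.22 of the gene reads in Tg heart and 0.374% ± 0.025 in Tg pancreas (SD, n = 3 each), where 10 acinar markers alone took 27.8% to 50.1% of the reads of the 8 pancreas libraries.

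Complex I, which oxidises NADH, was high in Tg heart throughout. All 35 of its subunits exceeded each of the other 4 tissues, and the median subunit was 4.07-fold higher in heart than in pancreas, 2.33-fold than in kidney, 5.39-fold than in ovary and 3.01-fold than in small intestine. The smallest of these differences were those of Ndufa6 against pancreas (0.52) and of Ndufb3 against kidney (0.50). Per kb of exon, Ndufb2, an accessory subunit, had the lowest level of the complex in Tg heart. It had 75.1 ± 4.5 normalised reads per kb (SD, n = 3). The exons of all its transcripts, 5628 bases, were the divisor, and 4022 bases overlap the same-strand gene Gm42420. Both make that value and its rank uncertain.

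Complex II, succinate dehydrogenase, is shared with the citric acid cycle. Sdha, which oxidises succinate, read 18420, 24000 and 21431 normalised reads in Tg hearts, against 10052 to 11064 in Tg kidneys, 7727 to 8752 in Tg small intestines, 3089 to 3328 in Tg ovaries and 2940 to 3016 in Tg pancreases. The ranges of the tissues did not overlap, and ovary and pancreas lay closest. The heart difference of Sdha was 2.82 ± 0.11 over pancreas and 1.02 over kidney. Sdhb, the iron-sulfur subunit, was higher in heart by 2.80, 1.44, 3.24 and 1.57 over pancreas, kidney, ovary and small intestine in that order. Sdhc, a membrane anchor, was higher by 2.16, 0.58, 2.31 and 0.98 in the same order. Sdhd, the other membrane anchor, was higher in heart than in pancreas (1.81), kidney (0.45) and ovary (2.12), but its difference from small intestine, 0.12, missed the threshold (adjusted p = 0.318). The anchor Sdhd read 3681, 4244 and 3906 in Tg hearts and 3182, 4157 and 3557 in Tg small intestines. The 2 tissues overlapped.

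Complex III passes electrons to cytochrome c. All 8 of its members exceeded the other 4 tissues in Tg heart, with median folds of 4.91 over pancreas, 2.38 over kidney, 6.71 over ovary and 2.49 over small intestine. Uqcrc2, a core protein, was higher in heart by 2.42 over pancreas, 1.19 over kidney, 2.78 over ovary and 1.26 over small intestine. Per kb of exon, Uqcr11 was the highest in Tg heart at 7579 ± 1049 and Uqcrq the lowest at 1571 ± 271 (SD, n = 3). Their exon lengths were 641 and 1831 bases, so these ranks depend on the length used. Uqcrq differed from the rest of the complex in pancreas: it was higher in Tg pancreas than in Tg ovary by 1.40, and its heart-to-pancreas difference, also 1.40, was the smallest of the 8.

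Complex V, the ATP synthase, was higher in Tg heart than in each other tissue for 17 of 17 members. The median member was 5.30-fold higher in heart than in pancreas, 2.43-fold than in kidney, 5.92-fold than in ovary and 2.59-fold than in small intestine. Atp5a1, the alpha subunit of the catalytic head, was the member of highest level per kb in Tg heart (18967 ± 2278), and Atp5s was the lowest of the complex (114 ± 7.4). The c subunit of the rotor ring is made from 3 genes that encode the same mature protein, and these differed in their tissue pattern. Atp5g1 was higher in heart than in pancreas, kidney, ovary and small intestine by 3.35, 1.95, 3.53 and 2.06. Atp5g3 was higher by 2.01, 0.98, 2.33 and 1.03, and Atp5g2 by 1.11, 0.72, 1.22 and 0.94 in the same order; both were chosen after their values were seen. Atp5g1 stood at the top of complex V in each of the 4 contrasts, and Atp5g2 at the bottom against pancreas and ovary. Differences between the 3 genes were not tested.

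**Figure D2:**
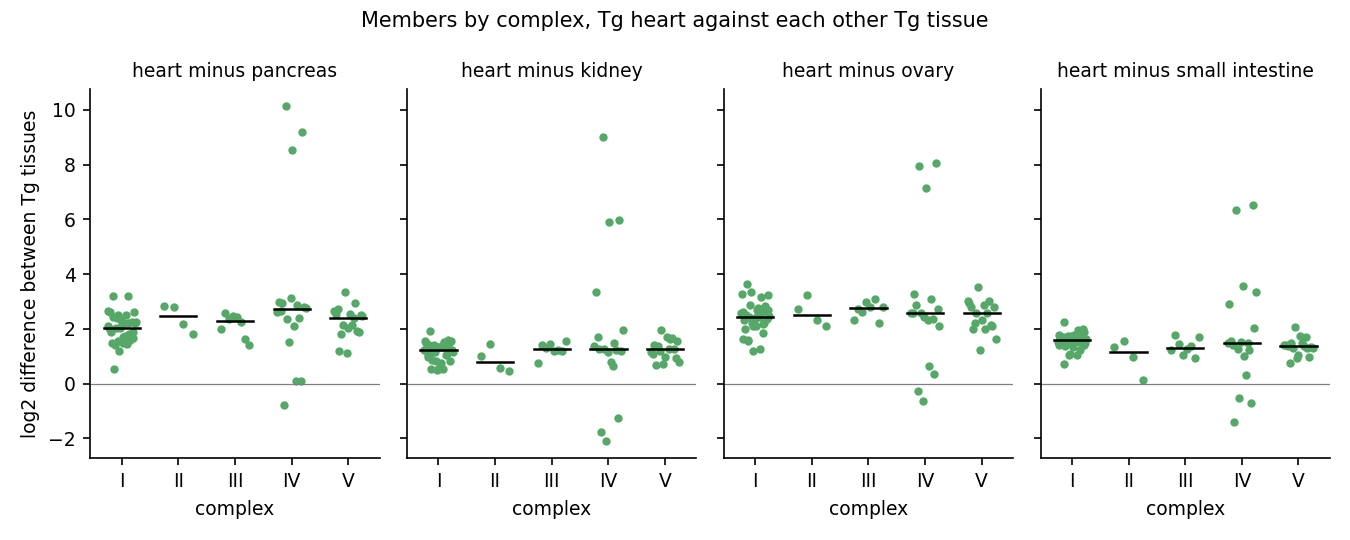
Log2 difference between Tg heart and each other Tg tissue for each of the 82 tested members, by complex, with the median of the complex as a bar. In complexes I, III and V every point lies above 0, while complex IV spreads from -2.10 (Cox6b2 against kidney) to 10.15 (Cox6a2 against pancreas).

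Complex IV, cytochrome c oxidase, was the complex whose members differed most among themselves. In Tg heart 14 of 18 tested members exceeded each other tissue, and the exceptions were Cox6a1, Cox8a, Cox6b2 and Cox7a2l. Cox6a2, Cox7a1 and Cox8b are the heart and muscle isoforms of subunits 6a, 7a and 8. Cox6a2 read 5656, 8609 and 8707 normalised reads in Tg hearts and at most 17.3 in Tg kidneys and 7.74 in Tg pancreases. Its heart difference was 10.15 ± 1.29 over pancreas, 9.0 over kidney, 7.94 over ovary and 6.34 over small intestine. Cox6a2 shares 953 bases with Itgad on the opposite strand, so that reads of the 2 genes could be counted together. Cox8b read 3440, 4319 and 4975 in Tg hearts and 45.2 to 84.7 in Tg kidneys, with differences of 9.20 ± 1.56, 5.99, 8.05 and 6.51 over pancreas, kidney, ovary and small intestine. Without Tg replicate 3 the kidney difference of Cox8b missed the threshold (5.82, adjusted p = 0.0625). Cox7a1 read 5629, 6614 and 7437 in Tg hearts, against 356 to 953 in Tg small intestines and 75.3 to 128 in Tg kidneys. Its difference over small intestine, 3.55, was the smallest of the 3 isoforms.

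The liver-type isoforms ran the other way or followed the rest. Cox6a1 was lower in Tg heart than in pancreas (-0.79), kidney (-1.76) and small intestine (-1.40), and its difference from ovary, -0.26, missed the threshold (adjusted p = 0.0630). Cox6a1 read 730, 667 and 745 in Tg hearts and 2497, 2139 and 2703 in Tg kidneys. Cox8a was lower in heart than in kidney (-1.24) and small intestine (-0.71), higher than in ovary (0.34), and at 0.11 from pancreas (adjusted p = 0.453). Cox7a2, the liver-type isoform of subunit 7a, was by contrast higher in heart by 2.11, 0.78, 2.33 and 1.02 over pancreas, kidney, ovary and small intestine. Cox4i2, the lung-type isoform of subunit 4, was higher in heart by 2.97, 3.34, 2.59 and 2.92 over the same tissues, at 65.6, 68.8 and 76.6 normalised reads in Tg hearts. Ndufa4l2, a hypoxia-inducible paralog of Ndufa4, was higher by 2.77, 1.96, 2.12 and 3.34, and Ndufa4 itself by 2.81, 1.2, 2.74 and 2.02. Without Tg replicate 3 the kidney difference of Ndufa4l2 missed the threshold (1.68, adjusted p = 0.0792).

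Shares of isoforms were computed per kb of exon within each library. In heart, Cox6a2 made up 89.2% ± 5.2 of Cox6a2 plus Cox6a1 in FMTg and 91.4% ± 2.2 in Tg (SD, n = 5 and 3). Cox8b made up 77.4% ± 7.7 of Cox8b plus Cox8a in FMTg hearts and 86.4% ± 0.65 in Tg hearts. Cox7a1 made up 75.3% ± 13.4 of Cox7a1 plus Cox7a2 in FMTg hearts and 72.5% ± 1.5 in Tg hearts. Without FMTg replicate 2 the FMTg heart shares were 91.3% ± 2.9 for Cox6a2, 79.5% ± 7.1 for Cox8b and 80.4% ± 8.4 for Cox7a1 (SD, n = 4). With FMTg replicates 1 to 3 alone they were 87.1%, 79.9% and 67.2% in the same order. In kidney the same shares were 0.433% in FMTg and 0.405% in Tg for Cox6a2, 1.96% and 3.76% for Cox8b, and 8.15% and 6.63% for Cox7a1. Small intestine kept a sizeable Cox7a1 share, 34.8% ± 11.9 in FMTg and 31.8% ± 10.1 in Tg. Outside the heart, single libraries carried heart isoforms together with cardiomyocyte markers. Tg replicate 3 of the ovary had 21.8% Cox6a2 and 19.3% Cox8b with 12012 normalised reads over the cardiomyocyte markers. Tg replicate 1 of the small intestine had 27.8% Cox6a2 and 30.2% Cox8b with 62894. The part of other tissue in these shares was not tested.

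The lesser isoforms of subunits 4 and Ndufa4 remained a minor share in heart. Cox4i2 was 1.63% of the subunit 4 pair in FMTg hearts and 0.794% in Tg hearts, and Ndufa4l2 was 5.92% of its pair in FMTg hearts and 2.41% in Tg hearts. The FMTg hearts with the highest shares of Cox4i2 were replicates 4 and 5, at 2.81% and 1.94%, and every FMTg heart exceeded every Tg heart. With FMTg replicates 1 to 3 alone the share of Cox4i2 in FMTg hearts was 1.13% and that of Ndufa4l2 was 4.35%. Cox4i1, the main isoform of subunit 4, shares 5986 bases with the same-strand gene Gm20388, so the share of Cox4i2 is uncertain. Over 25 tests of isoform ratios, 5 pairs in 5 tissues, the smallest exact permutation p (two-sided, 5 FMTg against 3 Tg libraries) was 0.0357, for Cox4i2 over Cox4i1 in heart, where FMTg exceeded Tg by 0.89 on the log2 scale, and by 0.47 without FMTg replicates 4 and 5. Adjusted over the 25 tests it was 0.781. With 56 divisions, the smallest two-sided p these tests can give is 0.0357, so the Cox4i2 ratio in heart lay at that limit. No isoform ratio differed by genotype at the adjusted threshold. A single ratio could not have passed it over 25 tests, even with the groups fully apart, so this does not show that the ratios were unchanged.

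**Figure D3:**
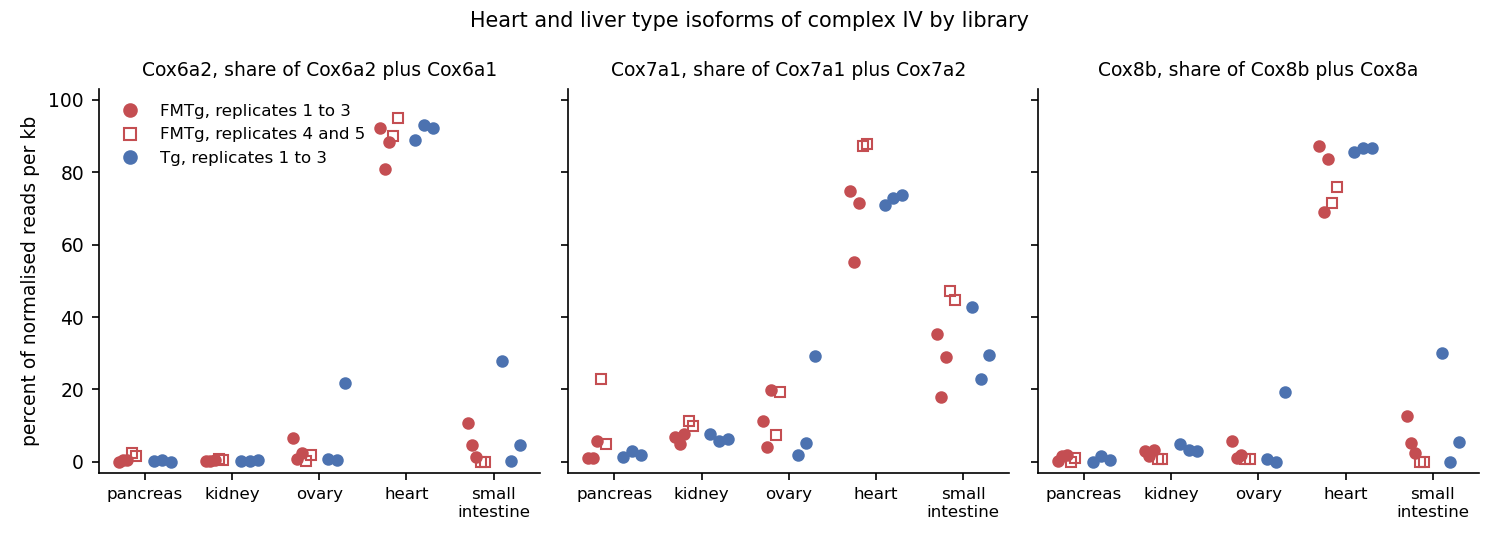
Share of the heart and muscle isoform in each library, in percent of normalised reads per kb of the 2 isoforms, for subunits 6a, 7a and 8, with FMTg left of Tg. Hearts stand far above the other tissues, except for Cox7a1 in small intestine, which averaged 34.8% in FMTg and 31.8% in Tg.

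The genotype comparison asks whether subunit transcripts had changed 24 hours after p53 activation. No member passed an adjusted p of 0.05 in any of the 5 tissues (limma, Benjamini-Hochberg over all genes tested). Over all genes, 0.446% were called in pancreas, 0.616% in kidney, 0.0% in ovary, 0.019% in heart and 0.0% in small intestine, so few or no calls among 82 members are near the background. At an unadjusted p below 0.05, 2 members were higher in FMTg pancreas (4.86% of all genes), 1 in kidney (4.37%), 1 in ovary (4.43%), 0 in heart (3.27%) and 1 in small intestine (1.43%). No member was lower at that level in any tissue, against 3.56% of all genes in pancreas, 3.94% in kidney, 1.93% in ovary, 3.06% in heart and 0.975% in small intestine. These counts moved when each library was left out in turn. Members that were higher then numbered 0 to 6 in pancreas, 1 to 16 in kidney, 0 to 4 in ovary, 0 to 1 in heart and 0 to 5 in small intestine. The highest counts were those without FMTg replicate 2 in pancreas (4.76% of all genes), kidney (6.71%) and ovary (4.06%) and without FMTg replicate 3 in heart (4.38%) and small intestine (2.13%). Members that were lower numbered 20 in ovary without FMTg replicate 3 (3.83% of all genes), the library with the enterocyte markers, 14 in heart without FMTg replicate 1 (4.30%) and 6 in small intestine without FMTg replicate 1 (1.63%). In pancreas and kidney at most 1 member was lower with any 1 library left out. No member passed the adjusted threshold with any 1 library left out. The median standard error of a member's log2 change was 0.28 in pancreas, 0.17 in kidney, 0.25 in ovary, 0.33 in heart and 0.19 in small intestine. Changes smaller than a few of these errors could not be detected with these libraries. The p-values measure the spread between these mice.

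The median log2 change of the members, FMTg minus Tg, was 0.14 in pancreas, 0.14 in kidney, -0.09 in ovary, -0.27 in heart and -0.05 in small intestine. In kidney 63 of 82 members had the higher mean in FMTg, against 42.5% of all genes, and in pancreas 52 of 82, against 45.4%. In heart 66 of 82 had the lower mean in FMTg, against 51.4% of all genes. Of the other tissues, 34 members in ovary (47.1% of all genes) and 36 in small intestine (42.3%) had the higher FMTg mean. The heart value turned on 1 library: without FMTg replicate 2 the median was -0.03 with 37 of 82 members above 0, and that library was the one with the low cardiomyocyte markers. The pancreas value likewise turned on FMTg replicate 3, the library with the proximal tubule markers, without which the median was 0.00169. In ovary the median was -0.15 with 26 of 82 members above 0 without FMTg replicate 3, and -0.00710 without Tg replicate 3. In kidney it was 0.04 with 60 of 82 members above 0 for FMTg replicates 1 to 3 alone, and 0.28 for FMTg replicates 4 and 5 minus Tg. In small intestine it was -0.11 without FMTg replicate 1 and 0.000476 without Tg replicate 1. Members took 2.73% ± 0.78 of gene reads in FMTg hearts against 3.24% ± 0.22 in Tg hearts (SD, n = 5 and 3), and 3.02% ± 0.52 in the 4 FMTg hearts other than replicate 2. In ovary, markers of other cells also moved with genotype. All 8 white adipocyte markers had the higher mean in FMTg ovaries (median change 2.70), 7 of them at an unadjusted p below 0.05 (4.43% of all genes) and 0 at the adjusted threshold. They summed to 8446, 9463, 3541, 44490 and 54767 normalised reads in FMTg ovaries, against 1963, 2097 and 3590 in Tg ovaries, and only FMTg replicate 3 lay within the Tg range. The 5 luteal and theca markers summed to 21203 to 24880 in FMTg ovaries, against 26686 to 44029 in Tg ovaries, without overlap. At an unadjusted p below 0.05, 3 of them were lower (1.93% of all genes). The part of these markers in the values was not tested.

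**Figure D4:**
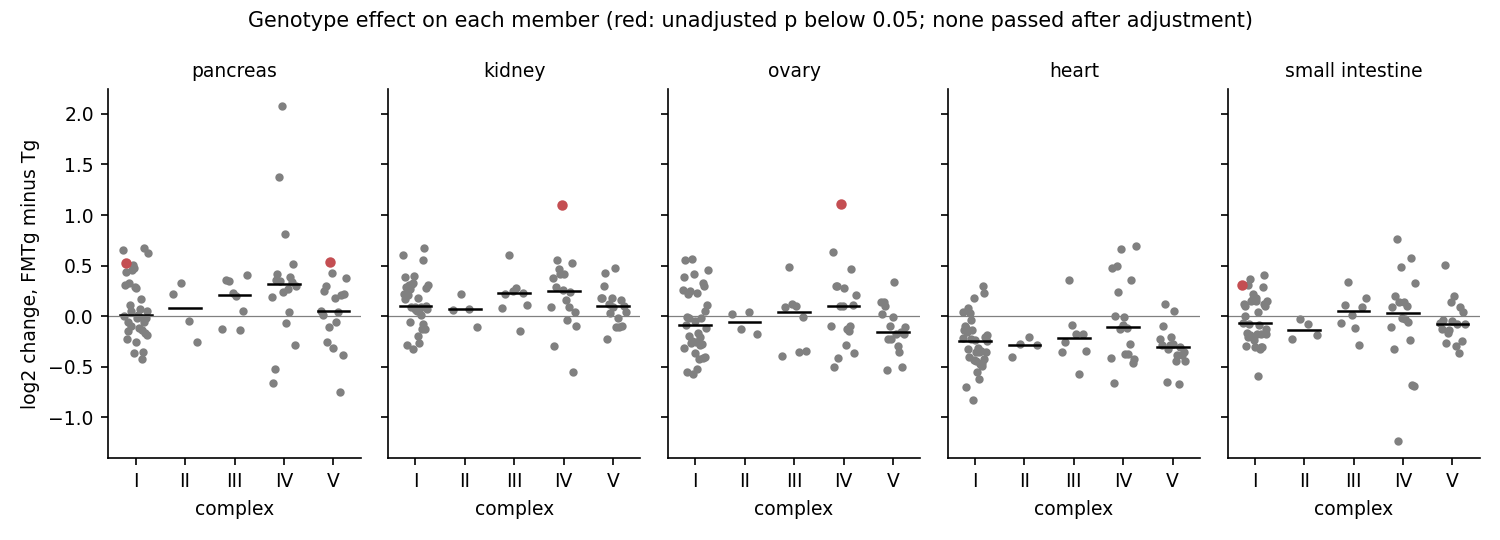
Log2 change of each of the 82 tested members, FMTg minus Tg, by tissue and complex, with the median of the complex as a bar and members with an unadjusted p below 0.05 in red. The red points are Ndufa13 and Atp5g1 in pancreas, Cox6b2 in kidney and ovary, and Ndufa1 in small intestine.

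Without the FMTg replicates of pancreas, ovary and heart named above for their markers, the medians of the complexes moved. Without FMTg replicate 2 of the heart, the heart medians of complexes I to V were -0.00115, -0.05, 0.04, 0.15 and -0.09. Without FMTg replicate 3 of the pancreas, the pancreas medians were -0.07, -0.13, 0.12, 0.23 and -0.0996 in the same order. Without FMTg replicate 3 of the ovary, the ovary medians were -0.16, -0.21, -0.09, -0.03 and -0.25. With FMTg replicates 1 to 3 alone, the kidney medians were 0.04, -0.02, 0.05, 0.08 and 0.03. The medians over all 5 FMTg libraries of a tissue follow by complex.

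Complex I medians were 0.01 in pancreas, 0.10 in kidney, -0.09 in ovary, -0.25 in heart and -0.07 in small intestine. Ndufa13, an accessory subunit also known as GRIM-19, read 1200, 1077, 1649, 1713 and 1870 normalised reads in FMTg pancreases, against 981, 1122 and 953 in Tg pancreases (0.53 ± 0.20, adjusted p = 0.505). The groups overlapped by 1 library. Ndufa13 shares 8379 bases with Yjefn3 on the same strand, and its value is uncertain for that reason. Ndufa1, an accessory subunit encoded on the X chromosome, read 876, 733, 679, 950 and 770 in FMTg small intestines and 674, 635 and 613 in Tg small intestines (0.31 ± 0.13, adjusted p = 0.990). It was the member whose FMTg libraries all exceeded the Tg libraries in that tissue, as did 1.69% of all genes. In pancreas and heart no member's FMTg libraries all exceeded the Tg libraries, against 4.68% and 3.42% of all genes. The members of smallest p in the other direction in heart were Ndufc1 (-0.62 ± 0.29, adjusted p = 0.760) and, in complex IV, Cox5a (-0.66 ± 0.32, adjusted p = 0.760). Ndufs3, Ndufs4, Ndufs7, Ndufs8, Ndufb5, Ndufb8, Ndufa2 and Ndufv3 were among the smallest p of a tissue and had changes between -0.56 (Ndufa2 in ovary) and 0.46 (Ndufv3 in ovary) there.

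Complex II medians lay between -0.28 in heart and 0.08 in pancreas. In FMTg kidneys Sdha read 11053, 9272, 11277, 11704 and 11342, against 10214, 10052 and 11064 in Tg kidneys (0.06 ± 0.13, adjusted p = 0.825). The groups overlapped, and this was also the case for Sdhb (0.22 ± 0.17), Sdhc (0.07 ± 0.13) and Sdhd (-0.11 ± 0.12) in kidney. In heart all 4 had a lower FMTg mean, between -0.41 for Sdha and -0.21 for Sdhc, with standard errors of 0.26 to 0.37, and without FMTg replicate 2 the lower mean was found for 2 of them. Complex III medians were 0.21 in pancreas, 0.23 in kidney, 0.04 in ovary, -0.21 in heart and 0.05 in small intestine. Uqcrq had 0.41 ± 0.21 in pancreas (adjusted p = 0.666), the smallest adjusted p of the complex there. Complex V medians were 0.05, 0.10, -0.16, -0.30 and -0.07 in the same tissue order. Atp5g1 read 822, 934, 1528, 1380 and 1343 in FMTg pancreases and 862, 939 and 647 in Tg pancreases (0.53 ± 0.24, adjusted p = 0.593). The 2 groups overlapped.

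Complex IV medians were 0.32 in pancreas, 0.25 in kidney, 0.10 in ovary, -0.10 in heart and 0.03 in small intestine. The largest difference of any member in pancreas, kidney and ovary was that of Cox6b2 (chr7:4751792-4753094, minus strand). In kidney, Cox6b2 read 184, 419, 209, 110 and 143 normalised reads in FMTg, against 88.7, 74.5 and 96.0 in Tg (1.10 ± 0.36, unadjusted p = 0.0129, adjusted p = 0.487). All FMTg kidneys exceeded all Tg kidneys, as did 4.17% of all genes in kidney. In ovary it read 60.4, 110, 102, 38.1 and 49.0 in FMTg, against 22.6, 32 and 29.3 in Tg (1.11 ± 0.38, unadjusted p = 0.0166, adjusted p = 0.616). Again the groups did not overlap, as for 3.43% of all genes in ovary. In pancreas it read 25.6, 50.3, 80.1, 0 and 63.0 in FMTg, against 8.21, 0 and 4.67 in Tg (2.08 ± 1.12, adjusted p = 0.699). FMTg replicate 4, a library of 7.16 M reads, had no read, while the other 4 FMTg pancreases exceeded the Tg pancreases. The highest of them, FMTg replicate 3, was the library with the proximal tubule markers, and Cox6b2 read higher in Tg kidneys than in any other Tg tissue. Without that library the pancreas change was 1.72 (adjusted p = 0.644). The part of kidney tissue in the pancreas value was not tested. In heart it read 16.6, 57.3, 39.1, 23.5 and 17.7 in FMTg, against 15.9, 22.3 and 10.4 in Tg (0.66 ± 0.44, adjusted p = 0.762), and the groups overlapped. In small intestine it read 30.4, 30.1, 62.7, 47.8 and 25.7 in FMTg, against 24.7, 25 and 25.7 in Tg (0.48 ± 0.32, adjusted p = 0.990), and the lowest FMTg library lay at the highest Tg library.

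Fitted over all 40 libraries with the mouse as a random block, the mean change of Cox6b2 over the 5 tissues was 0.98 ± 0.39 (adjusted p = 0.305). No member was called for the mean change, against 0.706% of all genes, and no member's change differed among tissues, against 0.133% of all genes. The call for Cox6b2 depended on the fit. It passed without the mouse block (1.09, adjusted p = 0.0377), with FMTg replicates 1 to 3 alone (1.43, adjusted p = 0.000341) and with mice that gave an ovary library alone (1.41, adjusted p = 0.000761). In kidney, heart and small intestine both of the latter fits keep the same FMTg libraries, replicates 1 to 3, so they are not independent of each other. With library weights it passed in pancreas (2.57, adjusted p = 0.0408) and kidney (1.28, adjusted p = 0.0254). The neighbouring genes Kmt5c and Il11 were not called in any tissue. The changes of Kmt5c were 0.70 ± 0.34 in pancreas, 0.03 ± 0.10 in kidney, -0.25 ± 0.21 in ovary, 0.00720 ± 0.27 in heart and 0.45 ± 0.32 in small intestine. Those of Il11 were -0.83 ± 0.79, -0.45 ± 0.29, -0.70 ± 0.57, 0.02 ± 0.59 and 0.31 ± 0.40 in the same order. Cox6b1, the ubiquitous isoform of the same subunit, had changes of 0.34 in pancreas, 0.42 in kidney, 0.10 in ovary, -0.13 in heart and 0.14 in small intestine. In Tg mice Cox6b2 was highest in kidney, with a heart minus kidney difference of -2.10 on the log2 scale.

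**Figure D5:**
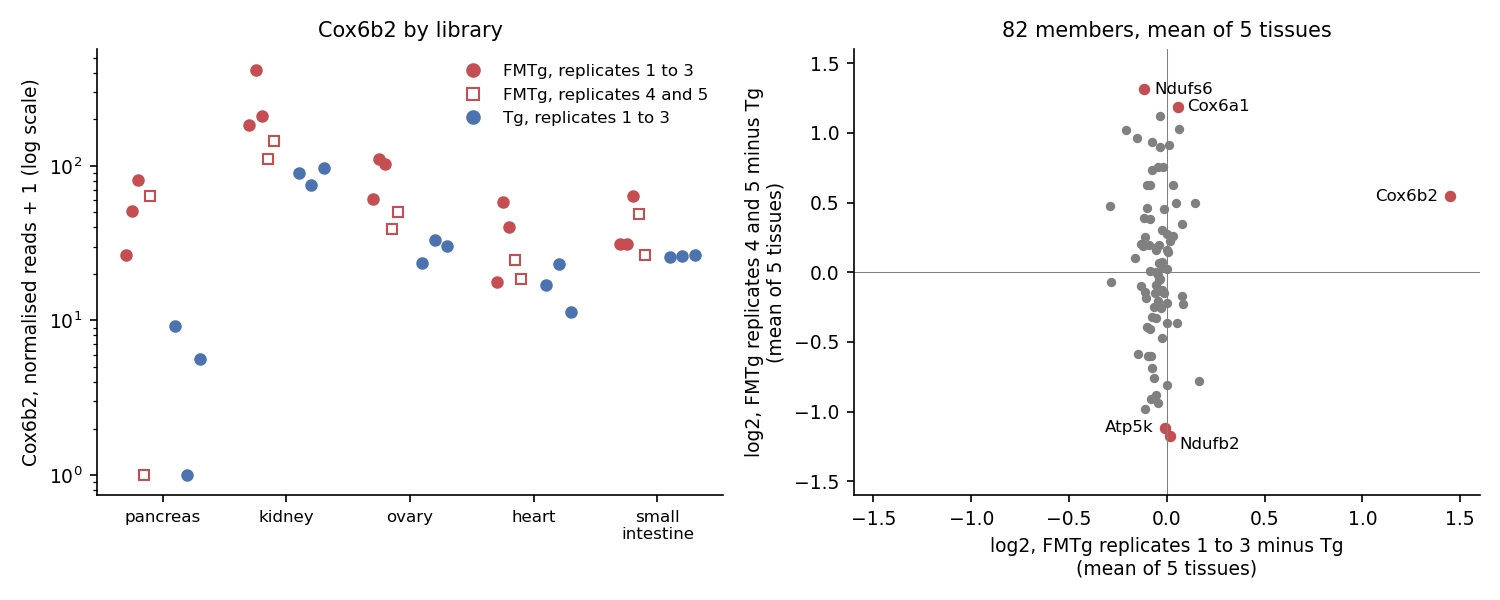
Left, Cox6b2 in each library as normalised reads plus 1 on a log scale, with FMTg left of Tg. Right, the mean log2 difference over 5 tissues of each tested member in FMTg replicates 1 to 3 minus Tg (horizontal) and in FMTg replicates 4 and 5 minus Tg (vertical): Cox6b2 stands at 1.45 on the horizontal axis, where the other members lie near 0, while the vertical axis runs from -1.17 (Ndufb2) to 1.31 (Ndufs6).

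Other members with the smallest p for the mean change were Cox6a1 (0.62 ± 0.20, adjusted p = 0.217) and Cox8a (0.54 ± 0.18, adjusted p = 0.230) on the higher side. On the lower side they were Ndufa2 (-0.50 ± 0.18, adjusted p = 0.275), Ndufc1 (-0.50 ± 0.19, adjusted p = 0.278) and Ndufb2 (-0.58 ± 0.22, adjusted p = 0.284). In these genes the FMTg libraries did not move together. In kidney, Cox6a1 read 2578, 2294, 2787, 6395 and 5664 in FMTg replicates 1 to 5, against 2497, 2139 and 2703 in Tg. FMTg replicates 1 to 3 lay among the Tg libraries, and replicates 4 and 5 lay above them. Ndufb2 read 267, 237, 277, 126 and 102 in FMTg kidneys and 236, 205 and 272 in Tg kidneys, with replicates 4 and 5 below all others. In heart, Ndufs6, chosen after its values were seen, read 2553, 844, 1910, 4680 and 5952 in FMTg and 1940, 2331 and 2378 in Tg.

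Described over the members, and without a test, FMTg replicates 1 to 3 differed from Tg by a mean over tissues with a SD across members of 0.182, and FMTg replicates 4 and 5 by one of 0.566. For all 14532 genes tested in every tissue the same SDs were 0.246 and 0.597, so the wider spread was shared by the transcriptome. Differences over 0.5 in size between FMTg replicates 4 and 5 and Tg were found for 41 members in pancreas, 34 in kidney, 34 in ovary, 33 in heart and 32 in small intestine. For replicates 1 to 3 they were found for 4, 1, 1, 12 and 2 members in the same order. The members furthest from Tg in replicates 4 and 5, chosen after their values were seen, were Ndufs6 (1.31), Cox6a1 (1.19), Uqcrb (1.12), Cox8a (1.03) and Ndufs5 (1.02) on the higher side. Ndufb2 (-1.17), Atp5k (-1.11), Cox5a (-0.98), Ndufc1 (-0.94) and Ndufa2 (-0.91) were on the lower side. They belong to complexes I, III, IV and V, and complexes I and IV held members on both sides. Of the 82 members, 20 were higher and 19 lower in replicates 4 and 5 than in replicates 1 to 3 in all 5 tissues, 24.4% and 23.2%, against 8.33% and 17.3% of all genes. Per the sample identifiers, replicates 4 and 5 came from the same mice in pancreas and small intestine. They came from other mice in kidney and heart, and from others again in ovary. The 5 tissues are therefore not independent of each other here. The part of whatever separates these libraries in the mean changes above was not tested.

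The subunits encoded by mitochondrial DNA were compared beside the nuclear ones. The table holds 13 of them, of which 10 to 12 were tested per tissue and 0 were called. Their median changes were 0.91 in pancreas, 0.18 in kidney, 0.26 in ovary, -0.52 in heart and 0.18 in small intestine. Without FMTg replicate 2, the heart library with the low cardiomyocyte markers, the heart median was -0.13. Without FMTg replicate 3, the pancreas library with the tubule markers, the pancreas median was 0.795. With FMTg replicates 1 to 3 alone the medians were 0.65 in pancreas, -0.26 in kidney, -0.25 in ovary, -1.09 in heart and -0.21 in small intestine, so that the direction in kidney, ovary and small intestine turned. In pancreas 6 of 10 had an unadjusted p below 0.05 with FMTg higher (4.86% of all genes), among them mt-Nd4 (0.86 ± 0.28, adjusted p = 0.368). Without FMTg replicate 3 this held for 4 of 10 (5.59% of all genes). The nuclear median minus the mitochondrial median of a library was 0.476, 0.212, -0.010, -0.063 and -0.354 in FMTg pancreases, against 0.758, 0.846 and 0.832 in Tg pancreases. The groups did not overlap, and FMTg replicates 3 to 5 were lowest. In kidney, mitochondrial reads took 6.90% and 5.18% of gene reads in FMTg replicates 4 and 5, against 2.68% to 3.05% in Tg. In heart they took 11.1% and 15.5% in the same FMTg replicates, against 6.58% to 8.16% in Tg.

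Genes around the respiratory chain were compared as well. Lists of assembly factors of complexes I to V, citric acid cycle enzymes, electron carriers and coenzyme Q synthesis, and mitochondrial biogenesis regulators were examined. In these lists 0 genes were called in each tissue. Over all genes, 0.446% were called in pancreas, 0.616% in kidney, 0.0% in ovary, 0.019% in heart and 0.0% in small intestine. The counts of 0 are near that background. In heart 18 of 18 citric acid cycle genes had the lower mean in FMTg, as did 51.4% of all genes, with a median change of -0.20. Without FMTg replicate 2, the heart library with the low cardiomyocyte markers, 7 of 18 had the lower mean, against 53.3% of all genes, and the median was 0.04. Among 8 tested carriers and kinases of ATP export, Ckmt1, the mitochondrial creatine kinase, rose in pancreas to 916 to 1256 normalised reads in FMTg, against 304 to 373 in Tg (1.6 ± 0.17, adjusted p = 0.00573). It was the 1 gene of that list called in pancreas, where 0.446% of all genes were called. In a list of 10 p53 targets, 4 rose in FMTg kidney, where 0.616% of all genes were called. They were Bax, which permeabilises the outer mitochondrial membrane (1.39 ± 0.11, adjusted p = 0.000526), and Pmaip1 (0.96 ± 0.15, adjusted p = 0.0225). The others were Bbc3 (1.74 ± 0.28, adjusted p = 0.0296) and Cpt1c (1.54 ± 0.27, adjusted p = 0.0423). Cpt1c, a brain-type member of the carnitine palmitoyltransferase family, also rose in pancreas (1.92 ± 0.31, adjusted p = 0.0337). In FMTg pancreas the erythroid markers Hbb-bs (2.10 ± 0.29, adjusted p = 0.0170) and Hba-a1 (2.31 ± 0.35, adjusted p = 0.0242) were higher as well, beside the subunit values given above. Their part in those values was not tested.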

How the data were processed

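RNA from flash-frozen tissue was extracted with Trizol and made into Illumina libraries, per the labels' protocols. The submitters' processing notes name STAR 2.6.0b, DESeq2 and the build GRCm38; the annotation, the counter and strand setting are not given in the sources used here. The authors deposited variance-stabilised log2 values for 40 libraries, in which a gene without reads has the value 1.65. Their inversion gave whole reads for 100% of values (tolerance 0.01), and these gave normalised reads (reads divided by a size factor). Levels per length used the union exon length of GENCODE M21, in which all 83 members were found by identifier. That length counts the exons of every transcript of a gene, so levels per kb, their ranks and the isoform shares depend on it.

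The 8 libraries of a tissue were fitted with limma 3.58.1 (R 4.3.3, mean-variance trend) on the deposited values, for genes whose mean in the tissue exceeded the lowest value by 1 or more. The call threshold was 0.05 for p adjusted by Benjamini-Hochberg over all genes. Errors after a log2 change are standard errors. Log2 changes understate the change of genes with few reads. The 15 Tg libraries were fitted together for tissue contrasts, and all 40 for mean effects, with the mouse as a random block (statmod 1.5.0, correlation 0.233). The same 3 Tg mice gave all 5 tissues, per the sample identifiers, so tissue contrasts are paired; a block for the mouse left 77 members higher in heart. Isoform ratios had exact permutation tests (python 3.11.15, scipy 1.17.1). The fits were run on simulated reads with the same spread, taken from Tg libraries, for every gene and library of a tissue. These simulations do not cover the wider spread of FMTg replicates 4 and 5.

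Named members are the isoform pairs, complex II, any called member, in each tissue the 2 of smallest p in each direction, the 3 of smallest p for each direction of the mean effect and for differing among tissues, the highest and lowest level per length of each complex in Tg heart, and the 5 of smallest F test p; others are marked. A member that this rule names is not reported here. The members and lists were chosen with earlier results of these data known. Alternatives were filters, scaling, trend, library weights, voom on recovered reads and left-out libraries; complexes, lists and shares without single libraries were added after the data were seen.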

Additional observations from a re-analysis of the deposited data

Results flagged for a closer look

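In groups of 5 FMTg libraries, 92 values were examined for a library whose gap to its nearest neighbour was large for the range of the group, and 11 were found. Of independent groups, about 1 in 20 would be found by chance. The 92 values overlap, since many summarise the same 5 libraries, so the 11 cannot be set against that rate.

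In pancreas, FMTg replicate 3 was the highest library in 5 of these. Its members took 0.726% of gene reads, against 0.257% to 0.381% in the other 4 FMTg pancreases. Its complex medians, as log2 differences from the mean over Tg libraries of all tissues, were -0.0913 for complex I, -0.22 for complex II, -0.19 for complex IV and -0.22 for complex V, while the other 4 lay between -1.18 and -0.55. This library had 78822 normalised reads over proximal tubule markers and 34080 over thick ascending limb markers, against at most 1958 and 317 in the other pancreas libraries.

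In ovary, FMTg replicate 3 was highest for complex II (-0.63, the others -1.64 to -1.36) and complex V (-0.55, the others -1.45 to -1.21). It had 114972 normalised reads over enterocyte markers, against at most 8011 in the other ovary libraries.

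In heart, FMTg replicate 2 was lowest for complex I (0.20, the others 1.23 to 1.63) and complex III (0.28, the others 1.32 to 1.74). Its cardiomyocyte markers summed to 237264 normalised reads, against 501727 to 869737 in the other 7 heart libraries, and its erythroid markers to 250593, against 18141 to 190560.

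In small intestine, FMTg replicate 1 was highest over all members (0.257, the others -0.14 to -0.03) and for complex I (0.12, the others -0.30 to -0.19).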

How the results depend on the processing

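Of the counts and medians recomputed under each alternative, 183 values stayed within 1.5 times the main count or within 1 SD of the Tg libraries and 9 moved. Library weights gave 1 called member in pancreas and 1 in kidney, Cox6b2 in both; in small intestine the weights stopped before full convergence. With single libraries left out, the median member change ran from 0.00169 to 0.17 in pancreas and from -0.382 to -0.027 in heart; with mice that gave an ovary library alone it was 0.28 in pancreas. FMTg libraries in place of Tg libraries gave 50 members higher in heart than in every other tissue, and leaving out a Tg replicate gave 72 to 75. The mean effect over tissues was called for 1 member without the mouse block, for 2 with FMTg replicates 1 to 3 alone (Cox6b2 higher, Cox7a2l lower) and for 1 with mice that gave an ovary library alone. Both of the latter alternatives keep the same FMTg libraries in kidney, heart and small intestine. The cause was not tested. Of the named members, heart over kidney lost its call for Cox8b (adjusted p = 0.0625) and Ndufa4l2 (adjusted p = 0.0792) without Tg replicate 3, and for Cox7a2, Ndufa4, Sdha, Sdhc and Sdhd with FMTg libraries. Isoform ratios changed sign in 21 of 225 alternatives. None was called, but with libraries left out these permutation tests cannot give a p below 0.05. The absence of calls there carries no information. FMTg and Tg libraries of the same number come from different mice, so the numbers do not pair them. With a replicate block 0 members were called in each tissue. The median changes were then 0.17 in pancreas, 0.04 in kidney, -0.08 in ovary, -0.40 in heart and -0.00287 in small intestine. These medians equal those with FMTg replicates 1 to 3 alone. FMTg replicates above 3 have no Tg library of the same number, so under the block they add nothing to the genotype estimate. The fit with the block therefore cannot show what blocking does with all FMTg libraries kept. Few reads limit what could be detected for low members such as Cox6b2, Cox4i2 and Cox7b2.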

Other observations

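The name rule leaves out some nuclear genes of the chain. Cyc1, cytochrome c1 of complex III, had a change of -0.34 ± 0.31 in heart (adjusted p = 0.784). Ndufab1, the acyl carrier protein of complex I, had -0.50 ± 0.27 there (adjusted p = 0.760). Neither was called.

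Members with the higher FMTg mean in all 5 tissues numbered 11 of 82, 13.4%, against 7.28% of 14532 genes, and those with the lower mean in all 5 numbered 12, 14.6%, against 12.9%. No test was made of these counts.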
